A study of Mus musculus with 24 samples.

Results

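Dpagt1 and Mfsd2a encode the enzyme that tunicamycin blocks and a membrane carrier through which the drug has been reported to enter cells. These 2 genes were taken by name from the 32728 genes of the deposited tables, and both were listed in each of the 8 tables. RNA had been sequenced from 24 libraries of cultured mouse neurons and astrocytes, 3 in each of 8 groups. All cultures came from mice with loxP sites in both copies of Perk (Eif2ak3), the gene of a sensor kinase in the membrane of the endoplasmic reticulum (ER) that lowers translation when unfolded proteins accumulate. In the groups named Perk KO, a lentivirus had brought active Cre into the cultured cells, and in those named WT the virus carried an inactive Cre, so that both carried the floxed alleles and a virus. In each cell type and genotype, 1 group spent 24 hours with tunicamycin (TM, 5 µg/mL) at day in vitro 14, and 1 group received the solvent DMSO (control). The labels call the 3 libraries of a group biological replicates without naming cultures or animals, so that a p-value speaks of the spread among libraries alone, which may be technical.

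In N-linked glycosylation, a branched sugar is first built on the lipid dolichol phosphate in the ER membrane and is then moved as a whole to asparagines of new proteins. DPAGT1 starts the chain by moving N-acetylglucosamine phosphate from UDP-GlcNAc to dolichol phosphate, and tunicamycin resembles these substrates and binds in their place. MFSD2A is a sodium-dependent carrier of lysophosphatidylcholine, known above all for bringing docosahexaenoic acid, an omega-3 fatty acid, across the endothelium of brain vessels. In human cells, loss of this carrier has been reported to make cells resistant to tunicamycin.

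In the deposited tables, which use GRCm38, Dpagt1 (ENSMUSG00000032123) lies at chr9:44326019-44333900 on the plus strand and Mfsd2a (ENSMUSG00000028655) at chr4:122946850-122961188 on the minus strand. Their gene lengths in the tables are 3425 and 2250 bases. The GENCODE annotation of the same build gives Dpagt1 6 transcripts, 1 of them protein coding, and Mfsd2a 4 transcripts, 2 of them protein coding. Dpagt1 overlaps the antisense gene Gm48853 by 1217 bases, and the kit used does not record strand. Gm48853 had 0 to 5 counts in each library, against 274 to 1549 counts for Dpagt1. The start of Mfsd2a lies 120 bases from that of 4933421A08Rik, a noncoding transcript that is read in the other direction. The stretch before Mfsd2a is shown because 2 transcripts, both measured here, start from it. The 250 bases upstream of the RefSeq start (GRCm38.p6, chr4:122961189-122961438, minus strand, 5′ to 3′) read as follows, with the letters of a CCAAT box on the opposite strand in capitals.
Mfsd2a: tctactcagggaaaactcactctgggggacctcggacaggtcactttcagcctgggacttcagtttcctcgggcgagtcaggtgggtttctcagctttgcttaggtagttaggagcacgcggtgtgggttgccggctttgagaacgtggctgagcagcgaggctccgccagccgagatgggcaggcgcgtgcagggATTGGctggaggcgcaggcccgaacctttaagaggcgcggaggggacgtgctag
Motifs were searched on both strands of the RefSeq window of 300 bases, which also holds the first 50 of the transcript. The CCAAT box was found once, at position 197 from the 5′ end of the window, and 37.4% of 32851 RefSeq promoter windows of the same length hold one. The ER stress element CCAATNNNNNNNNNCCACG, which begins with a CCAAT box, had no match in the window, and 0.119% of all windows hold it. There was also no match to the unfolded protein response element TGACGTGG (0.676% of windows), the CHOP-ATF4 element TGATGNAAT (0.965%) or the E-box CACGTG (7.15%).

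Across the series, genes received 16 to 25.9 M counts per library. Eif2ak3, the gene targeted by Cre, averaged 12.4 CPM (counts scaled to the size of the library) in TM-treated Perk KO neurons against 133 CPM in TM-treated WT neurons, and 5.38 against 37.4 CPM in the controls. In astrocytes it averaged 13.5 against 87.7 CPM with TM and 6.71 against 26.1 CPM in controls, so that it was lower in the libraries labelled Perk KO in each pair. Hspa5, the ER chaperone BiP and a standard readout of ER stress, rose with TM by 2.32 ± 0.13 in Perk KO neurons, 4.30 ± 0.10 in WT neurons, 2.72 ± 0.15 in Perk KO astrocytes and 3.57 ± 0.21 in WT astrocytes (log2 difference ± standard error, adjusted p from 4.59e-08 to 0.000151). Summed over 12 neuron markers, libraries labelled neurons held 3934 to 8156 CPM and those labelled astrocytes 241 to 375 CPM. The sum of 10 astrocyte markers did not separate the labels, with 955 to 4298 CPM in neuron cultures and 634 to 4187 CPM in astrocyte cultures. In such bulk samples, fewer cells of a type and less RNA per cell cannot be told apart.

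**Figure D1:**
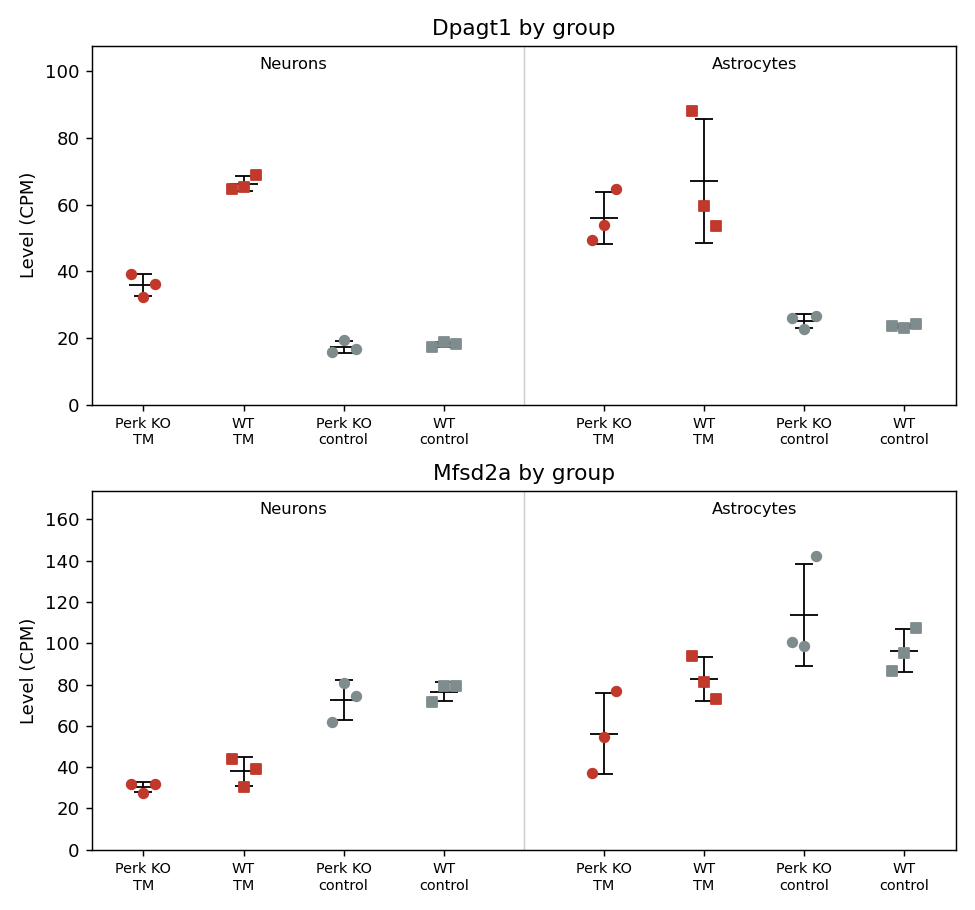
Level of Dpagt1 (top) and Mfsd2a (bottom) in CPM, normalised over all 24 libraries, in each library of the 8 groups; points are libraries, red for TM and grey for control, circles for Perk KO and squares for WT, and lines are the mean and SD of 3. For Dpagt1 the TM-treated libraries lie above the controls in each cell type and genotype, and for Mfsd2a they lie below except in WT astrocytes, where 1 of the TM-treated libraries lies among the controls and the groups overlap.

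Dpagt1 RNA was higher with TM in both cell types and both genotypes, and 0 of the 12 TM-treated libraries overlapped with their controls. With TM it had 39.1, 32.4 and 36.2 CPM in Perk KO neurons, against 15.9, 19.5 and 16.6 CPM in control Perk KO neurons. In WT neurons it had 64.7, 65.2 and 68.8 CPM with TM, against 17.2, 18.7 and 18.2 CPM in controls. The 3 TM-treated libraries lay close together, with an SD of 2.25 CPM around the TM mean of 66.2 CPM. Perk KO astrocytes had 49.4, 53.9 and 64.8 CPM with TM, against 25.9, 22.8 and 26.7 CPM in controls. In WT astrocytes it had 88.2, 59.7 and 53.5 CPM with TM, against 23.7, 22.8 and 24.2 CPM in controls. The TM-treated WT astrocytes spread most, with replicate 1 well above the other two, and their mean was 67.1 ± 18.5 CPM (SD, n = 3).

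Differences were fitted on all genes of each comparison with edgeR's quasi-likelihood test and Benjamini-Hochberg adjustment. They are given as log2 differences ± standard error. Each fit scaled its own libraries, so that a fitted difference can depart from the ratio of the levels above. Dpagt1 rose by 1.09 ± 0.13 in Perk KO neurons (adjusted p = 0.00132), where 13.1% of 16197 genes tested were called higher. In WT neurons the rise was 2.03 ± 0.10, or 4.07-fold (adjusted p = 1.31e-06), with 27% of genes called higher. It was 1.15 ± 0.12 in Perk KO astrocytes (adjusted p = 0.000525), with 5.55% of genes called higher, and 1.49 ± 0.19 in WT astrocytes (adjusted p = 0.000558), with 25% called higher. Within these 4 comparisons, 96% to 98.3% of the genes tested had a smaller log2 difference than Dpagt1. Without any 1 library, the rise passed in each of the 24 fits and was lowest at 1.02 (Perk KO neurons). The authors' deposited tables give Dpagt1 log2 fold changes of 1.08, 1.99, 1.15 and 1.51 for the same 4 comparisons.

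The rise of Dpagt1 differed between genotypes in neurons. With TM, Perk KO neurons had 35.9 ± 3.34 CPM and WT neurons 66.2 ± 2.25 CPM (SD, n = 3 each), and the libraries did not overlap. The difference was -0.89 ± 0.11 (adjusted p = 0.000533), in a comparison where 20.7% of genes were called higher and 19.4% lower. In controls, Perk KO neurons had 17.3 ± 1.89 CPM and WT neurons 18.0 ± 0.802 CPM, with overlapping libraries and a difference of 0.00 ± 0.12 (adjusted p = 0.981; 12.2% of genes were called higher and 9.16% lower). The interaction of genotype and TM, tested in 1 model over the 12 neuron libraries, was -0.97 ± 0.14 (adjusted p = 0.000417; 29.8% of genes were called in either direction). It ranged from -1.03 to -0.88 when each library was left out in turn.

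In astrocytes no such difference passed for Dpagt1. With TM, Perk KO astrocytes had 56.0 ± 7.92 CPM and WT astrocytes 67.1 ± 18.5 CPM, and the libraries overlapped. The difference was -0.22 ± 0.19 (adjusted p = 0.337), where 32.1% of genes were called higher and 31.2% lower. In controls, Perk KO astrocytes had 25.1 ± 2.07 CPM and WT astrocytes 23.6 ± 0.675 CPM, a difference of 0.10 ± 0.11 (adjusted p = 0.543; 4.71% of genes were called higher and 10.2% lower). The interaction of genotype and TM was -0.35 ± 0.24 (adjusted p = 0.271; 34.4% of genes called in either direction), and -0.50 to -0.11 with each library left out. Whether the interaction itself differed between the cell types was tested over all 24 libraries. That difference, neurons minus astrocytes, was -0.48 ± 0.29 (adjusted p = 0.380; 5.51% of genes called) and therefore did not pass. It passed in 1 of 24 fits with a library left out, that without replicate 1 of the TM-treated WT astrocytes (adjusted p = 0.0475, range 0.0475 to 0.537).

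**Figure D2:**
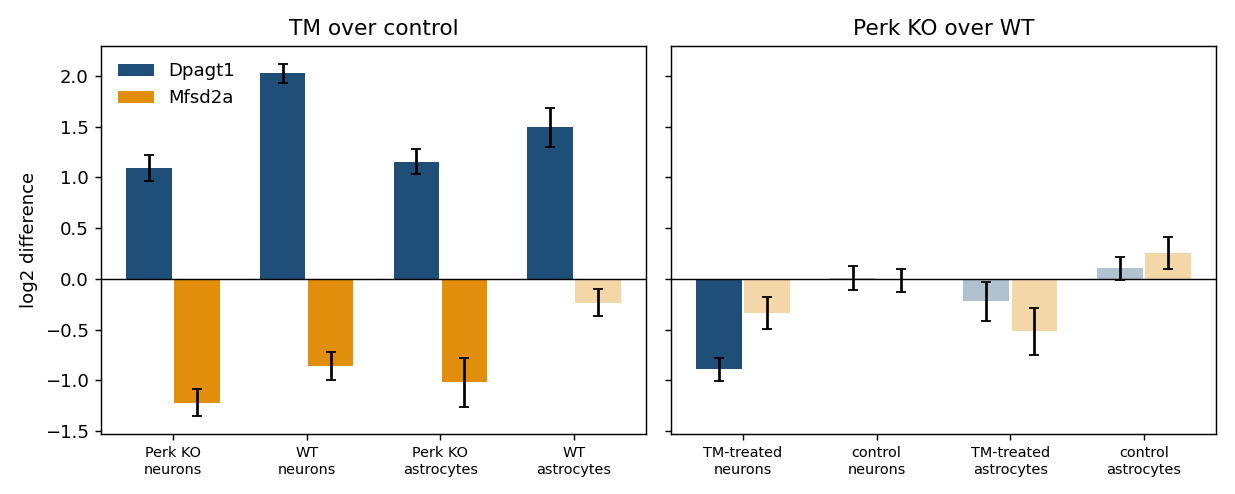
Fitted log2 differences of Dpagt1 (blue) and Mfsd2a (orange), TM over control on the left and Perk KO over WT on the right, each from 3 against 3 libraries; bars start at 0, lines are standard errors, and pale bars have an adjusted p of 0.05 or more. The rise of Dpagt1 is 2.03 in WT neurons and 1.09 in Perk KO neurons, and of the 8 differences between genotypes 1 is drawn dark, that of Dpagt1 in TM-treated neurons. These fits did not pair same-numbered replicates. With pairing, the Mfsd2a differences between genotypes in TM-treated cells also passed.

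Mfsd2a RNA was lower with TM in neurons of both genotypes and in Perk KO astrocytes, while the difference in WT astrocytes did not pass. With TM it had 31.7, 27.4 and 31.7 CPM in Perk KO neurons, against 62.0, 80.8 and 74.5 CPM in control Perk KO neurons. In WT neurons it had 44.1, 30.5 and 39.3 CPM with TM, against 71.3, 79.1 and 79.2 CPM in controls. No TM-treated neuron library reached the level of any control neuron library. Perk KO astrocytes had 37.3, 54.8 and 76.8 CPM with TM, against 100.4, 98.5 and 142 CPM in controls. In WT astrocytes it had 94.0, 81.4 and 72.8 CPM with TM, against 86.7, 95.4 and 107 CPM in controls. The Perk KO astrocytes did not overlap between treatments, although the 3 TM-treated libraries lay far apart, and the WT astrocytes overlapped.

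The fall was -1.22 ± 0.13 in Perk KO neurons, or 2.33-fold (adjusted p = 0.000963), where 10.8% of genes tested were called lower. In WT neurons it was -0.86 ± 0.14, or 1.82-fold (adjusted p = 0.000972), with 24.8% of genes called lower. Perk KO astrocytes showed -1.02 ± 0.24, or 2.03-fold (adjusted p = 0.0280), with 4.6% of genes called lower. The difference in WT astrocytes was -0.24 ± 0.13 (adjusted p = 0.164), with 27.7% of genes called lower. The authors' deposited tables give Mfsd2a log2 fold changes of -1.23, -0.89, -1.02 and -0.22 for these comparisons. Both falls in neurons passed in each fit with a library left out. In Perk KO astrocytes the call was lost without control replicate 2 (adjusted p = 0.0622), control replicate 3 (0.0748) or TM replicate 2 (0.110), with values from -1.30 to -0.79. In WT astrocytes the difference passed without TM replicate 1 (-0.34, adjusted p = 0.0447, range 0.0447 to 0.424).

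Markers of other cell types were counted with TM as well, where 10.8% of all genes were called lower in Perk KO neurons, 24.8% in WT neurons, 4.6% in Perk KO astrocytes and 27.7% in WT astrocytes. Called higher were 13.1% of all genes in Perk KO neurons, 27% in WT neurons, 5.55% in Perk KO astrocytes and 25% in WT astrocytes. Of the astrocyte markers tested, 1 of 10 was lower and 3 were higher with TM in Perk KO neurons, and 8 of 9 were lower in WT neurons. Lower markers numbered 3 of 9 in Perk KO astrocytes and 7 of 9 in WT astrocytes. Their sum was 3241 to 4280 CPM in TM-treated Perk KO neurons against 4062 to 4298 CPM in control Perk KO neurons, and 955 to 1058 CPM in TM-treated WT neurons against 3241 to 3480 CPM in control WT neurons. In astrocyte cultures it was 1846 to 2481 CPM with TM against 3069 to 4187 CPM in controls for Perk KO, and 634 to 720 CPM against 2279 to 3509 CPM for WT. Neuron markers were lower for 9 of 12 in Perk KO neurons and 10 of 12 in WT neurons. In Perk KO neurons 1 of 9 markers of the oligodendrocyte lineage, 5 of 8 of microglia and 3 of 9 of fibroblasts and mural cells were lower, and in WT neurons 8 of 9, 5 of 6 and 5 of 9. In Perk KO astrocytes the counts for these 3 lists were 2 of 7, 1 of 8 and 3 of 8, and in WT astrocytes 4 of 6, 6 of 8 and 4 of 8. Higher in these 3 lists were Pdgfrb in Perk KO neurons (0.55), Mog in WT neurons (2.68) and Olig2 in Perk KO astrocytes (0.40). Of the neuron markers in astrocyte cultures, 0 of 7 were called in Perk KO, and 5 of 8 were lower and 2 higher in WT. Of the endothelial markers tested, 2 of 8 were higher in Perk KO neurons, 2 of 5 lower in WT neurons, 1 of 6 higher in Perk KO astrocytes and 2 of 6 lower in WT astrocytes. The part of these differences in the values of Dpagt1 and Mfsd2a was not tested.

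In brain, MFSD2A is known as a marker of vessel endothelium, so endothelial markers were examined beside it. Of 16 markers on the list 14 were in the tables, and Cldn5 and Sox17 were not analysed here. Pecam1 and Cdh5, defining markers picked from the list with their values in view like Tie1, Emcn and Erg, had at most 26 and 23 counts in any library, against 500 to 2641 counts for Mfsd2a. Tie1 was at 0 in TM-treated and control WT neurons and in control astrocytes of both genotypes. Emcn was at 0 in 3 of the 4 astrocyte groups and Erg in 3 of the 4. These markers near 0 are not the whole list. Besides Slco1a4, Kdr and Flt1 had enough counts for a test with TM in each kind of culture. Kdr had -0.04 in Perk KO neurons, -0.78 in WT neurons, -0.07 in Perk KO astrocytes and -1.57 in WT astrocytes, and both WT values passed. Flt1 did not pass in any of them. Pecam1, Cdh5, Egfl7, Vwf, Esam, Ly6c1 and Abcb1a were tested in some. Of these, Esam rose by 3.23 ± 0.57 in Perk KO neurons (adjusted p = 0.00601), and the others did not pass with TM in any culture. Summed without Slco1a4, an organic anion transporter singled out after its values were seen, the other 13 markers held 24.2 to 27.9 CPM in TM-treated Perk KO neurons against 22.7 to 28.1 CPM in controls, and 17.3 to 20.1 CPM in TM-treated WT neurons against 24.3 to 33.6 CPM in controls. They held 24.3 to 31.7 CPM in TM-treated Perk KO astrocytes against 24.4 to 33.2 CPM in controls, and 15.1 to 16.9 CPM in TM-treated WT astrocytes against 23.5 to 34.8 CPM in controls. The sum was thus lower with TM, without overlap, in both WT cultures, and its part in the values of Mfsd2a was not tested. Slco1a4 itself averaged 674 CPM in TM-treated Perk KO astrocytes, 39.9 CPM in TM-treated WT astrocytes, 476 CPM in control Perk KO astrocytes and 250 CPM in control WT astrocytes. In neuron cultures it averaged 87.0 CPM (Perk KO with TM), 11.5 CPM (WT with TM), 34.5 CPM (Perk KO control) and 21.2 CPM (WT control). With Slco1a4, the 14 markers summed to 28.4 to 117 CPM in neuron libraries and 37.1 to 801 CPM in astrocyte libraries.

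No difference in Mfsd2a between genotypes passed in the 4 direct comparisons fitted without pairing, and the libraries overlapped in each. With same-numbered replicates paired, the differences in TM-treated cells passed, as given below. In TM-treated neurons Perk KO had 30.3 ± 2.47 CPM and WT 38.0 ± 6.92 CPM (SD, n = 3 each), a difference of -0.34 ± 0.16 (adjusted p = 0.123). In control neurons Perk KO had 72.5 ± 9.56 CPM and WT 76.5 ± 4.51 CPM, a difference of -0.01 ± 0.12 (adjusted p = 0.944). TM-treated Perk KO astrocytes had 56.3 ± 19.8 CPM and TM-treated WT astrocytes 82.8 ± 10.7 CPM, a difference of -0.52 ± 0.23 (adjusted p = 0.0769). Control Perk KO astrocytes had 114 ± 24.8 CPM and control WT astrocytes 96.4 ± 10.3 CPM, a difference of 0.25 ± 0.16 (adjusted p = 0.292). The interaction of genotype and TM for Mfsd2a was -0.39 ± 0.20 in neurons (adjusted p = 0.154) and -0.80 ± 0.31 in astrocytes (adjusted p = 0.0654).

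Some of these results for Mfsd2a sat near the threshold and crossed it when same-numbered replicates, whose deviations ran together in these comparisons, were paired. With the replicate number as a block, the genotype difference with TM was -0.33 in neurons (adjusted p = 0.0448, range over other settings 0.0448 to 0.138) and -0.56 in astrocytes (adjusted p = 0.0448, range 0.0103 to 0.0750). The blocked interaction in astrocytes was -0.84 (adjusted p = 0.0145, range 0.00365 to 0.0583). With the block, 4288 genes were called for TM in Perk KO astrocytes against 1539 without it, and 5730 against 2260 for Perk KO over WT in control astrocytes. Leaving out 1 library also moved them past the threshold: the neuron difference without TM-treated WT replicate 2 (-0.48, adjusted p = 0.0494, range 0.0494 to 0.375) and the astrocyte difference without TM-treated Perk KO replicate 3 (-0.79, adjusted p = 0.0109, range 0.0109 to 0.202). The interactions passed without the same libraries, with adjusted p = 0.0436 in neurons and 0.0113 in astrocytes. In the authors' deposited table the astrocyte difference with TM is -0.55 with an adjusted p of 0.0425.

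Between cell types, the levels of both genes were set on a common scale. In TM-treated WT cells, Dpagt1 averaged 66.2 CPM in neurons and 67.1 CPM in astrocytes, with overlapping libraries and a difference of 0.10 ± 0.17 (adjusted p = 0.615; 36.6% of genes were called higher in neurons and 33.9% lower). Mfsd2a averaged 38.0 CPM in these neurons and 82.8 CPM in these astrocytes, a difference of -1.01 ± 0.16 (adjusted p = 0.000429), without overlap. In control WT cells Dpagt1 averaged 18.0 CPM in neurons and 23.6 CPM in astrocytes (-0.35 ± 0.12, adjusted p = 0.0316), and 35.8% of genes were called higher in neurons and 35.2% lower. Mfsd2a averaged 76.5 CPM in these neurons and 96.4 CPM in these astrocytes (-0.29 ± 0.12, adjusted p = 0.0453). Both control differences were without overlap but small, and each passed in 1 of 6 fits with a library left out, that without control WT astrocyte replicate 1 (adjusted p = 0.0468 for Dpagt1 and 0.0192 for Mfsd2a, with ranges up to 0.144 and 0.210). For Dpagt1 with TM, the difference passed without TM-treated WT astrocyte replicate 1 (0.33, adjusted p = 0.0128).

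The response to TM in WT cells differed between cell types for Mfsd2a, with an interaction of -0.80 ± 0.20 (neurons minus astrocytes, adjusted p = 0.0131), and 24.9% of genes were called in either direction. The call was lost without control WT astrocyte replicate 1 (adjusted p = 0.0524) and passed in the other 11 such fits. In Perk KO cells the same interaction was -0.20 ± 0.31 (adjusted p = 0.731), with 11.7% of genes called. For Dpagt1 the interaction was 0.36 ± 0.23 in WT cells (adjusted p = 0.280) and -0.06 ± 0.18 in Perk KO cells (adjusted p = 0.879). The WT value passed without TM-treated WT astrocyte replicate 1 (0.62, adjusted p = 0.00778). Whether the genotype changed the Mfsd2a interaction between cell types was not resolved, at 0.54 ± 0.39 (adjusted p = 0.489).

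Ordered by mean level, Dpagt1 ran from TM-treated WT astrocytes through TM-treated WT neurons, TM-treated Perk KO astrocytes and TM-treated Perk KO neurons to control Perk KO astrocytes, control WT astrocytes, control WT neurons and control Perk KO neurons. Neighbours in this order overlapped, except that TM-treated Perk KO astrocytes stood clear of TM-treated Perk KO neurons, these of control Perk KO astrocytes, and control WT astrocytes of control WT neurons. The order for Mfsd2a was control Perk KO astrocytes, control WT astrocytes, TM-treated WT astrocytes, control WT neurons, control Perk KO neurons, TM-treated Perk KO astrocytes, TM-treated WT neurons and TM-treated Perk KO neurons. Each neighbour in that order overlapped with the next.

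Set per kilobase of gene length, the 2 transcripts can be compared within a library. The ratio of Mfsd2a to Dpagt1 was 1.24, 1.29 and 1.33 in TM-treated Perk KO neurons, against 5.95, 6.32 and 6.84 in control Perk KO neurons. In WT neurons it was 1.04, 0.712 and 0.869 with TM, against 6.33, 6.42 and 6.63 in controls. Of the 24 libraries, 2 held less Mfsd2a than Dpagt1 per length, both from TM-treated WT neurons. Which libraries fall below 1 rests on the gene lengths used, and the lengths of the transcripts present were not measured. By raw counts Mfsd2a was below Dpagt1 in each TM-treated neuron library of both genotypes. It was also below in replicate 1 of the TM-treated Perk KO astrocytes (713 against 943 counts). Perk KO astrocytes had ratios of 1.15, 1.55 and 1.80 with TM, against 5.91, 6.59 and 8.12 in controls. In WT astrocytes it was 1.62, 2.08 and 2.07 with TM, against 5.56, 6.36 and 6.75 in controls. Control means lay between 6.22 and 6.87 in the 4 kinds of culture, while TM means ran from 0.873 in WT neurons to 1.92 in WT astrocytes.

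**Figure D3:**
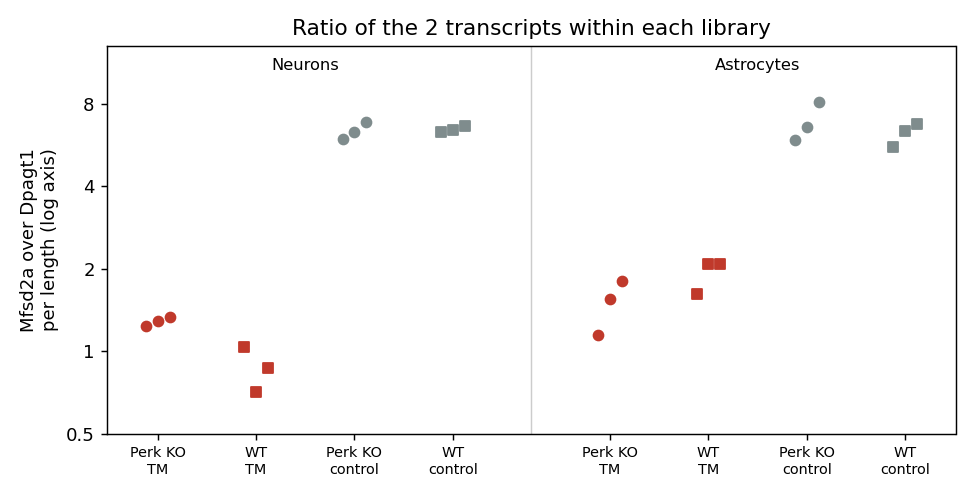
Ratio of the Mfsd2a level to the Dpagt1 level per kilobase of gene length in each of 24 libraries, on a log axis; red points are TM-treated and grey points control libraries, circles Perk KO and squares WT. Control libraries lie between 5.56 and 8.12 in both cell types, and TM-treated libraries between 0.712 and 2.08.

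Genes that act after DPAGT1 were examined beside it. A list of 17 genes for the assembly of the lipid-linked sugar, of which 16 were tested, gave 5 higher and 0 lower with TM in Perk KO neurons (median log2 difference 0.37). In WT neurons it gave 6 higher and 0 lower (median 0.28), in Perk KO astrocytes 7 and 0 (0.41) and in WT astrocytes 10 and 1 (0.58). Over all genes tested in these 4 comparisons, the medians lay between -0.01 and 0.04, and the shares called higher were 13.1%, 27%, 5.55% and 25% in the same order. In WT neurons the count of 6 in 16 is thus not far above that share. Dpagt1 lay above 16 of 16 of them in Perk KO neurons, 15 of 16 in WT neurons and 14 of 16 in astrocytes of each genotype. In Perk KO neurons it was level with Alg5, the next gene, within the standard error (1.09 ± 0.13 against 1.06), so that this rank is not resolved. The gene above Dpagt1 in WT neurons was Alg12, a mannosyltransferase of the ER lumen. Alg12 rose by 2.41 ± 0.12 there (adjusted p = 1.71e-06) and by 0.96 ± 0.13 in Perk KO neurons (adjusted p = 0.00243). In astrocytes Alg12 rose by 1.66 ± 0.15 (Perk KO) and 2.15 ± 0.13 (WT), and Alg2, an earlier mannosyltransferase, by 1.72 ± 0.09 (Perk KO) and 1.56 ± 0.18 (WT). Alg13 and Alg14, whose products add the next sugar after the step of DPAGT1, are named for that place in the chain, with their values in view. In Perk KO neurons Alg13 had -0.22 and Alg14 0.42, in WT neurons 0.21 and 0.19, and in Perk KO astrocytes -0.10 and 0.31, and none of these passed. In WT astrocytes Alg13 rose by 0.87 ± 0.18 (adjusted p = 0.00430), and Alg14 was at 0.12 (adjusted p = 0.515).

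Genes on either side of this chain were counted in the same way. With TM, 13.1% of all genes were called higher in Perk KO neurons, 27% in WT neurons, 5.55% in Perk KO astrocytes and 25% in WT astrocytes. Called lower were 10.8%, 24.8%, 4.6% and 27.7% in the same order. Of 12 genes of the oligosaccharyltransferase, the complex that moves the finished sugar to protein, 9 were higher and 0 lower in Perk KO neurons and 9 and 1 in WT neurons. The counts were 10 and 0 in Perk KO astrocytes and 11 and 1 in WT astrocytes, and the medians lay between 1.17 and 1.29. Stt3a, a catalytic subunit, rose by 1.38 ± 0.12 in Perk KO neurons, 1.90 ± 0.08 in WT neurons, 1.46 ± 0.08 in Perk KO astrocytes and 1.83 ± 0.16 in WT astrocytes. Of genes that supply UDP-GlcNAc, the sugar donor of DPAGT1, 3 of 6 were higher in Perk KO neurons, 5 of 7 in WT neurons, 3 of 6 in Perk KO astrocytes and 4 of 7 in WT astrocytes, and 1 was lower in each WT culture. Gfpt1, which controls entry into that pathway, rose by 0.37 ± 0.10 in Perk KO neurons, 1.77 ± 0.09 in WT neurons, 1.04 ± 0.11 in Perk KO astrocytes and 2.55 ± 0.18 in WT astrocytes. Pgm3, a later enzyme of the same pathway, rose by 1.07 ± 0.13, 1.90 ± 0.10, 1.37 ± 0.15 and 2.52 ± 0.11 in the same order. Of 5 genes that supply dolichol phosphate, the acceptor, 3 were higher in Perk KO neurons, 4 in WT neurons, and 2 each in Perk KO and WT astrocytes, where 1 was also lower in WT. In WT astrocytes the 2 of 5 higher are thus not far above the share over all genes.

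Between genotypes, the same lists were counted against the shares of all genes called, which were 20.7% higher and 19.4% lower in TM-treated neurons and 32.1% and 31.2% in TM-treated astrocytes. In TM-treated neurons 1 of 16 assembly genes was higher and 3 lower in Perk KO, among them Alg12 (-1.39, adjusted p = 6.69e-05), the only 1 of the 16 with a larger fall than Dpagt1. Of 7 UDP-GlcNAc genes 4 were lower and 1 higher, with Gfpt1 at -1.28 (adjusted p = 6.95e-05), and of 12 oligosaccharyltransferase genes 4 were lower and 0 higher. The assembly counts lie near or below the share over all genes. In TM-treated astrocytes 6 of 16 assembly genes were higher and 5 lower, also near that share, with Mpdu1 at 0.87 and Alg13 at -1.06. Of 12 oligosaccharyltransferase genes 2 were higher and 2 lower there, and of 7 UDP-GlcNAc genes 4 were lower and 1 higher, with Gfpt1 at -1.63 (adjusted p = 7.07e-05). In controls, 1 of 16 assembly genes was higher and 1 lower in each cell type. Of all genes, 12.2% were called higher and 9.16% lower in control neurons, and 4.71% and 10.2% in control astrocytes. The interaction in neurons, which passed for 29.8% of all genes, passed for 2 of 16 assembly genes, 1 in each direction, for 3 of 6 UDP-GlcNAc genes, each lower, and for 2 of 12 oligosaccharyltransferase genes, both lower. In astrocytes, with 34.4% of all genes, it passed for 4 of 16 assembly genes, 2 in each direction, for 3 of 7 UDP-GlcNAc genes, each lower, and for 1 of 12 oligosaccharyltransferase genes, higher. Of 5 dolichol phosphate genes, 1 was higher and 2 lower in TM-treated Perk KO neurons, and 2 and 2 in TM-treated Perk KO astrocytes. Their interaction passed for Dhdds (-0.43), Nus1 (-0.77) and Dolk (0.72) in neurons. In astrocytes it passed for Dhdds (-0.76), Nus1 (-0.75), Srd5a3 (0.64) and Dolk (0.49).

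**Figure D4:**
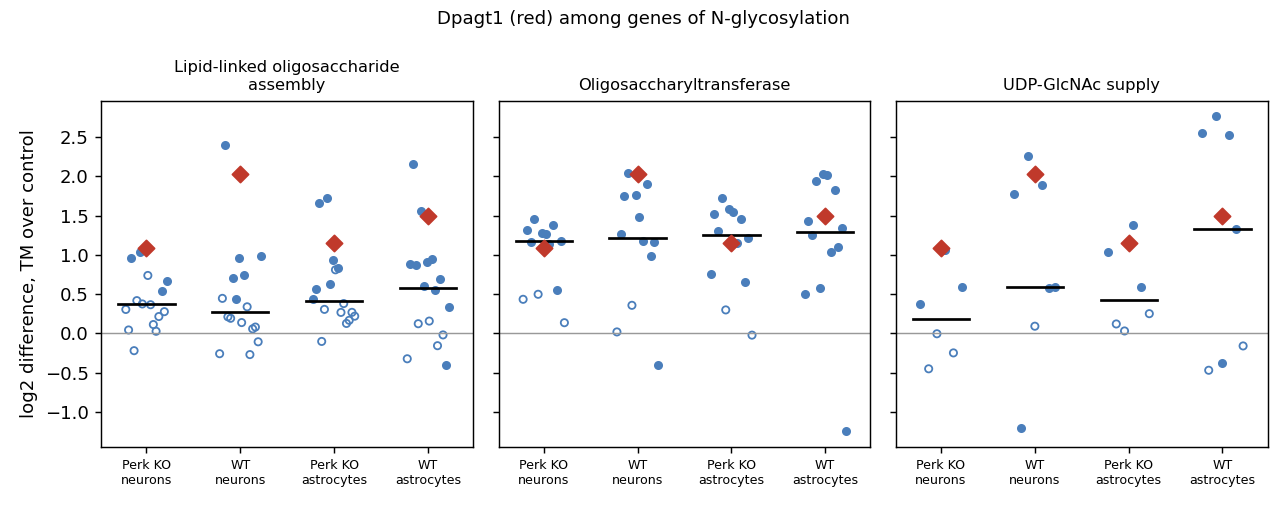
Log2 difference, TM over control, of each gene tested in lists for the assembly of the lipid-linked sugar, the oligosaccharyltransferase and the supply of UDP-GlcNAc, in the 4 kinds of culture; filled points have an adjusted p under 0.05, open points do not, black lines are list medians and red diamonds are Dpagt1. Dpagt1 lies above 14 to 16 of 16 assembly genes, while the median of the oligosaccharyltransferase genes is between 1.17 and 1.29. In Perk KO neurons Dpagt1 is level with the assembly gene Alg5 within its standard error.

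Genes that handle lysophospholipids and docosahexaenoic acid inside and around the cell were examined beside Mfsd2a. Of those tested, 2 of 17 were higher and 4 lower with TM in Perk KO neurons (median -0.04), and 0 of 17 were higher and 10 lower in WT neurons (median -0.45). In Perk KO astrocytes 4 of 17 were higher and 1 lower (median 0.01), and in WT astrocytes 1 of 16 was higher and 9 lower (median -0.83). Of all genes, 10.8% were called lower in Perk KO neurons, 24.8% in WT neurons, 4.6% in Perk KO astrocytes and 27.7% in WT astrocytes. Called higher were 13.1%, 27%, 5.55% and 25% of all genes in the same order. Mfsd2a had a lower log2 difference than each of the 17 in Perk KO neurons and in Perk KO astrocytes. In Perk KO neurons it was level with Fabp7 within the standard error (-1.22 ± 0.13 against -1.21), so that this rank is not resolved. In WT neurons 5 of 17 lay below it, and in WT astrocytes 10 of 16. Fabp7, a fatty acid binding protein of glia, fell in Perk KO neurons (-1.21), WT neurons (-2.34) and WT astrocytes (-3.01), and in Perk KO astrocytes its difference of -0.37 did not pass (adjusted p = 0.127). Fabp5, another member of that family, fell in Perk KO neurons (-1.13), WT neurons (-1.64), Perk KO astrocytes (-0.76) and WT astrocytes (-2.05). Acsl6, which links docosahexaenoic acid to coenzyme A, fell in WT neurons (-1.15) and WT astrocytes (-2.32). The highest value on the list was that of Slc27a1 in Perk KO neurons (1.05) and of Mfsd2b in WT neurons (0.65). In Perk KO astrocytes it was that of Spns2 (1.28), and in WT astrocytes that of Acsl4 (1.64).

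With TM, the genotype differences of this list had positive medians, where those of Mfsd2a were negative. In TM-treated neurons 10 of 17 genes were higher and 1 lower in Perk KO (median 0.52), where 20.7% of all genes were called higher. In TM-treated astrocytes 11 of 16 were higher and 1 lower (median 1.09), where 32.1% were. Acsl6 was higher by 1.12 in TM-treated Perk KO neurons (adjusted p = 0.000123) and by 2.66 in TM-treated Perk KO astrocytes (adjusted p = 4.05e-06), while Mfsd2a had -0.34 and -0.52 in the same comparisons, and with the replicate block both of these passed. Astrocyte markers were higher in the same comparisons, in 10 of 10 tested in TM-treated Perk KO neurons and in 8 of 9 in TM-treated Perk KO astrocytes. Their part in the list's values was not tested.

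Among other genes named Mfsd, which share the fold of the major facilitator transporters and carry varied cargo, Mfsd2a had the lowest log2 difference with TM in 3 of 4 comparisons. In Perk KO neurons 6 of 18 tested were higher and 1 lower, where 13.1% of all genes were called higher, and in WT neurons 7 of 17 were higher and 2 lower, where 27% were. In Perk KO astrocytes 1 of 17 was higher and 0 lower, close to the 5.55% of all genes, and in WT astrocytes 6 of 17 were higher and 1 lower, where 25% were called higher. Mfsd2a lay below each of them in neurons of both genotypes and in Perk KO astrocytes, and below 13 of 17 in WT astrocytes. In WT neurons it was level with Mfsd13a, the next lowest, within the standard error (-0.86 ± 0.14 against -0.77), so that this rank is not resolved. Mfsd1 rose by 0.82 ± 0.10 in Perk KO neurons, 0.80 ± 0.08 in WT neurons and 0.50 ± 0.12 in WT astrocytes. Mfsd2b, picked for its name, did not pass in any of the 4, with differences of -0.04 in Perk KO neurons, 0.65 in WT neurons, -0.49 in Perk KO astrocytes and 0.01 in WT astrocytes.

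**Figure D5:**
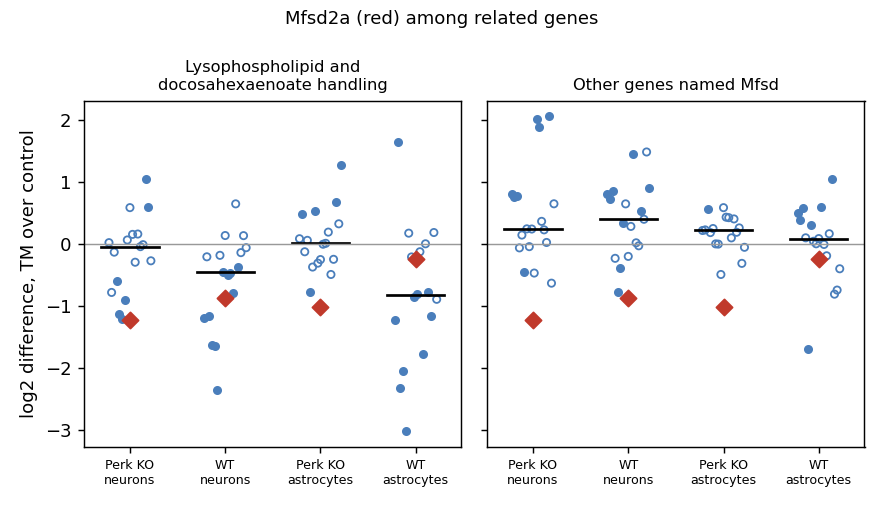
Log2 difference, TM over control, of genes that handle lysophospholipids and docosahexaenoic acid (left) and of other genes named Mfsd (right) in the 4 kinds of culture; filled points have an adjusted p under 0.05, open points do not, black lines are list medians and red diamonds are Mfsd2a. The diamond is the lowest point of both panels in Perk KO neurons and Perk KO astrocytes and lies among the others in WT astrocytes. On the left in Perk KO neurons it is level with Fabp7 within its standard error.

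Of the 5 neighbouring genes, Gm48853 and the pseudogene Gm12891 had too few counts to be tested, and none of the other 3 passed with TM in neurons. Beside Dpagt1, C2cd2l had 0.02 in Perk KO neurons and 0.04 in WT neurons, and H2afx, a variant histone of DNA damage signalling, had -0.05 and -0.25, and none passed. C2cd2l in Perk KO astrocytes had 0.17 and H2afx -0.14, neither past the threshold, while in WT astrocytes C2cd2l rose by 0.50 ± 0.13 (adjusted p = 0.0139) and H2afx by 1.00 ± 0.11 (adjusted p = 0.000277). The transcript opposite Mfsd2a, 4933421A08Rik, was low, with group means of 0.544 to 6.75 CPM. It had -1.30 ± 0.50 with TM in Perk KO neurons (adjusted p = 0.0952), 0.67 ± 0.32 in WT neurons (adjusted p = 0.114) and -0.23 ± 0.29 in Perk KO astrocytes (adjusted p = 0.718). In WT astrocytes it rose by 1.15 ± 0.20 (adjusted p = 0.00193), the culture in which the Mfsd2a difference did not pass. In TM-treated cells it was lower in Perk KO than in WT, with differences of -1.53 ± 0.48 in neurons (adjusted p = 0.0335) and -1.51 ± 0.23 in astrocytes (adjusted p = 0.000503). Its interaction of genotype and TM was -1.40 ± 0.32 in astrocytes (adjusted p = 0.00599), and it also passed, in the same direction, in neurons (adjusted p = 0.0226).

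The genes whose pattern was most like each of the pair were ranked by Pearson's r of log2 CPM over 24 libraries, after the mean of each cell type was subtracted, among 11465 protein-coding genes whose counts averaged 100 or more. For Dpagt1 they were P4hb (r = 0.987), Os9 (0.987), Pdia3 (0.984), Pdia5 (0.984) and Derl1 (0.978), which encode disulfide isomerases and factors of ER-associated degradation. P4hb averaged 596 CPM in TM-treated Perk KO neurons, 1044 CPM in TM-treated WT neurons, 214 CPM in control Perk KO neurons and 237 CPM in control WT neurons. For Mfsd2a they included Tubb5 (0.884), Pmepa1 (0.879), Adrb1 (0.870) and Chd3 (0.859), a tubulin, a membrane protein induced by TGF-beta, an adrenergic receptor and a chromatin remodeller. Without subtraction of the cell type means, 2 of the 5 genes remained among the first 5 for each, and r was -0.018 for Tubb5, 0.912 for Pmepa1, 0.897 for Adrb1 and -0.385 for Chd3. The 24 points share the treatment contrast, so that these values describe the libraries and carry no test.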

How the data were processed

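Per the submitters' processing notes, reads were cleaned with fastp, aligned to GRCm38.p6 with HISAT2 and counted with featureCounts; for versions and annotation release the sources used here give nothing. In 8 tables the authors deposited raw read counts of 6 libraries each and, per the file headers, their own log2 ratios between groups with raw and adjusted p-values (DESeq2, per the processing notes) and a gene length. Each library stands in 2 tables, and 0 counts differed between them. Replicates differed by more than sampling noise (chi-square per gene 7.06 to 70.6).

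Levels are counts scaled to library size (CPM), normalised by TMM over all 24 libraries. Tests used edgeR 4.0.16 in R 4.3.3 on the counts: each comparison on its own 6, 12 or 24 libraries, with TMM, the quasi-likelihood F test, a minimum mean of 10 counts per gene, and calls at a Benjamini-Hochberg adjusted p under 0.05 over all genes tested. The fits were tested on simulated data. The same spread beyond counting noise was simulated for each gene, and replicates were independent, so that replicates that run together were not covered. The precision of a count rests on depth (16 to 25.9 M counts per library). The members and the 12 lists were chosen with earlier results of these data known. Named genes are the pair, Eif2ak3, Hspa5, adjacent genes, the 3 genes with the smallest p in each list and comparison, and the 5 genes most like each of the pair; others were chosen after their values were seen, as stated beside them. A gene that the rule takes is not reported here.

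Alternatives were no count filter, DESeq2 1.42.0 itself or only its size factors, the replicate block, a GC correction over 20 bins alone and with the block, and each library left out. Titles give the replicate numbers without saying what they share. Deviations from group means correlated across genes at 0.26 to 0.60 for same-numbered libraries in astrocyte comparisons. Between genotypes they correlated at 0.15 to 0.33 in control neurons and 0.18 to 0.46 in TM-treated neurons. These comparisons were taken as paired only in the fits with the replicate block, and the main fits did not pair them. The TM comparisons of neurons (-0.35 to 0.26) and those between cell types (-0.14 to 0.18) showed no such pairing. Normalized and FPKM columns were not used here.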

Additional observations from a re-analysis of the deposited data

Results flagged for a closer look

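The rise of Dpagt1 with TM was smaller in Perk KO neurons than in WT neurons by a direct test of the difference. Dpagt1 had a genotype by TM interaction of -0.97 in neurons (± 0.14, adjusted p = 0.000417, edgeR), beside separately fitted rises of 1.09 in Perk KO and 2.03 in WT neurons. TM-treated libraries of Perk KO neurons (32.4 to 39.1 CPM) lay below those of WT neurons (64.7 to 68.8 CPM), 3 of 3. The astrocyte markers differed between the same libraries (3241 to 4280 CPM against 955 to 1058 CPM), and their part in the result was not tested.

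The response of Mfsd2a to TM differed between cell types in WT cells. The interaction, neurons minus astrocytes, was -0.80 (± 0.20, adjusted p = 0.0131, edgeR), fitted over the 12 WT libraries scaled together. Fitted apart, each on its own scaling, the differences were -0.86 in WT neurons and -0.24 in WT astrocytes, the second of which did not pass. The gap between these separate values is smaller in size than the interaction. Without control WT astrocyte replicate 1 the adjusted p was 0.0524.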

How the results depend on the processing

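The rise of Dpagt1 with TM in 4 comparisons, its genotype difference and interaction in neurons with TM, the fall of Mfsd2a with TM in neurons and its level in neurons against astrocytes with TM kept direction and call under every alternative and with each library left out. With the replicate block, Mfsd2a passed for Perk KO over WT in TM-treated neurons (-0.33) and astrocytes (-0.56) and for the astrocyte interaction (-0.84), and the control WT differences between cell types, where numbers do not pair, were lost (-0.35 for Dpagt1, -0.29 for Mfsd2a); the block changed no other call on the pair. The Mfsd2a genotype difference in TM-treated astrocytes also passed with no filter (-0.56), DESeq2 (-0.53), GC correction (-0.70) and GC correction with block (-0.74), and its astrocyte interaction with no filter (-0.79), DESeq2 (-0.81), GC correction (-0.94) and both (-0.97). Between cell types in control WT cells, the call was lost with no filter (-0.38 for Dpagt1, -0.32 for Mfsd2a) and, for Mfsd2a, with size factors or DESeq2 (-0.26 each). The sign of uncalled values turned in control neurons between genotypes (Dpagt1 -0.017 with no filter, Mfsd2a 0.13 with GC correction, with or without the block) and for Dpagt1 between TM-treated cell types (-0.11 with GC correction, -0.078 with the block added). The cause was not tested.

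With each library left out, ranges were, for Mfsd2a with TM, -1.30 to -0.79 in Perk KO astrocytes and -0.34 to -0.14 in WT astrocytes. Between genotypes they were -0.081 to 0.072 (Dpagt1) and -0.093 to 0.094 (Mfsd2a) in control neurons, -0.48 to -0.21 for Mfsd2a in TM-treated neurons, -0.38 to 0.022 (Dpagt1) and -0.79 to -0.29 (Mfsd2a) in TM-treated astrocytes, and 0.061 to 0.17 (Dpagt1) and 0.062 to 0.35 (Mfsd2a) in control astrocytes. Between cell types they were -0.38 to -0.28 (Dpagt1) and -0.37 to -0.21 (Mfsd2a) in controls and -0.040 to 0.33 for Dpagt1 with TM. For the interaction of genotype and TM in Mfsd2a they were -0.56 to -0.26 in neurons and -1.08 to -0.57 in astrocytes. For cell type and TM they were 0.21 to 0.62 (Dpagt1) and -0.92 to -0.63 (Mfsd2a) in WT, and -0.17 to 0.057 (Dpagt1) and -0.42 to 0.089 (Mfsd2a) in Perk KO. The 3-way interaction ran from -0.73 to -0.34 for Dpagt1 and from 0.31 to 0.82 for Mfsd2a. Genes called moved by over 1.5 times for TM in Perk KO astrocytes (1539, with block 4288, with GC correction and block 4374), for genotype in control astrocytes (2260, with block 5730, with both 5722), for cell type by TM in Perk KO (1875, with both 3103) and for the 3-way interaction (878, with DESeq2 1531, with block 1842, with both 2482). Libraries of 3 a group limit the precision, and counts of Dpagt1 down to 274 add counting error.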
